A study of Homo sapiens with 4 samples.

Results

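The annexins are a family of calcium-dependent, phospholipid-binding proteins. The 10 family members described here, ANXA1, ANXA2, ANXA3, ANXA4, ANXA5, ANXA6, ANXA7, ANXA10, ANXA11 and ANXA13, were chosen by gene symbol and make up 10 of the 18132 genes measured in this series. They were read by 42 of the 49293 probe sets tested, a probe set being a group of short oligonucleotides on the array that report 1 transcript or group of transcripts. The rule used no level and no change, but the choice of family was made with results of the same arrays in view, so the values below describe these genes and are not evidence about the family as a whole.

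Each annexin has a conserved core of repeats and an N-terminal tail that differs between members and sets their partners. In most members the core binds membranes rich in acidic phospholipids when calcium rises. The proteins take part in exocytosis, endocytosis, repair of torn plasma membrane and the linkage of membrane to actin. In epithelia several of them lie beneath the apical or basolateral membrane, and ANXA10 in normal tissue is known mainly from the stomach.

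The study asked which genes lie downstream of ARID1A, a subunit of the SWI/SNF chromatin remodelling complex. Total RNA of OE33, a long-established human line derived from an adenocarcinoma of the oesophagus, was measured on 4 Affymetrix PrimeView arrays. In the knockdown group, 2 arrays, the cells received the ON-TARGETplus SMARTpool of siRNAs against ARID1A, and in the mock group, 2 arrays, they received the ON-TARGETplus Non-targeting Pool. All 4 cultures were given siRNA at a final 50 nM with a lipid reagent 24 hours after plating, were kept in medium with 15% serum and were harvested 48 hours after transfection. The series calls the replicates biological. The model is a transient, partial loss of ARID1A mRNA in 1 tumour line, produced by 1 pool of siRNAs, and no second pool was compared.

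ARID1A itself, on a log2 scale, was at 7.53 and 7.53 in the knockdown arrays, against 9.28 and 9.33 in the mock arrays, at its brightest probe set (log2 change -1.78, SE 0.0718, limma adjusted p = 0.0218). Its other probe sets had changes of -1.61, -1.39, -1.37, -0.36 and 0.11, of which the last 2 did not pass (limma adjusted p = 0.213 and 0.678). Averaged over all its probe sets the change was -1.07. All 7 epithelial keratin, cadherin, claudin and EPCAM markers measured lay between 11.9 and 14.6 in the 4 arrays, all above percentile 98.1 of the probe sets tested, whereas 10 of 11 gastric and intestinal columnar markers lay below the median probe set. Of the 16 leukocyte, endothelial and fibroblast markers 13 were below the median probe set. The summed linear signal of the 6 leukocyte markers was 275 and 279 in knockdown arrays, against 312 and 336 in mock arrays, and that of the 4 endothelial markers was 196 and 193, against 219 and 225. For the 6 fibroblast markers the sums were 153 and 136 in knockdown arrays and 152 and 167 in mock arrays. For the beta-actin control, the 3′ minus the 5′ signal (log2), which grows as RNA degrades, was 1.21 and 1.10 in knockdown arrays and 1.04 and 0.995 in mock arrays. For the GAPDH control it was 0.2006 and 0.215 in knockdown arrays and 0.199 and 0.211 in mock arrays, with overlapping groups. The part of these shifts in the annexin values was not tested.

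In the ARID1A knockdown cells, ANXA10 and ANXA7 lay below their mock levels, ANXA4 lay slightly above, and the other annexins differed by less than 0.15 log2 units at their representative probe sets. The representative probe set of a gene is the one with the highest mean over the 4 arrays. By limma with Benjamini-Hochberg adjustment over all 49293 probe sets, 0 of the 42 annexin probe sets passed an adjusted p of 0.05, and 156 of all probe sets (0.316%) did. At an unadjusted p under 0.05, 6 annexin probe sets were higher and 3 were lower. All 3 lower ones and 4 of the higher ones were gene-specific by name, which means that they do not end in _s_at or _x_at, the endings of probe sets whose probes can match other sequences. Of all probe sets tested, 9.1% were higher and 7.07% lower at that unadjusted p. Such shares are not given for the fits with 1 array left out, so the annexin counts in those fits have no background. With 1 array left out, which leaves 1 residual degree of freedom, the higher count was 1 without knockdown replicate 1, 1 without knockdown replicate 2, 5 without mock replicate 1 and 0 without mock replicate 2, and the lower count was 3 or 4. The median log2 change over the 10 genes was 0.08, beside a median of -0.0043 over all 18132 genes. By signal level, the median change was -0.016 in the lowest quartile of all probe sets and 0.022 in the highest. A fit with a trended robust prior, in which the variance prior follows the signal level and allows for outlying probe sets, gave another count of calls, 10 annexin probe sets (7 higher, 3 lower), in a setting in which 6.59% of all probe sets were called.

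**Figure D1:**
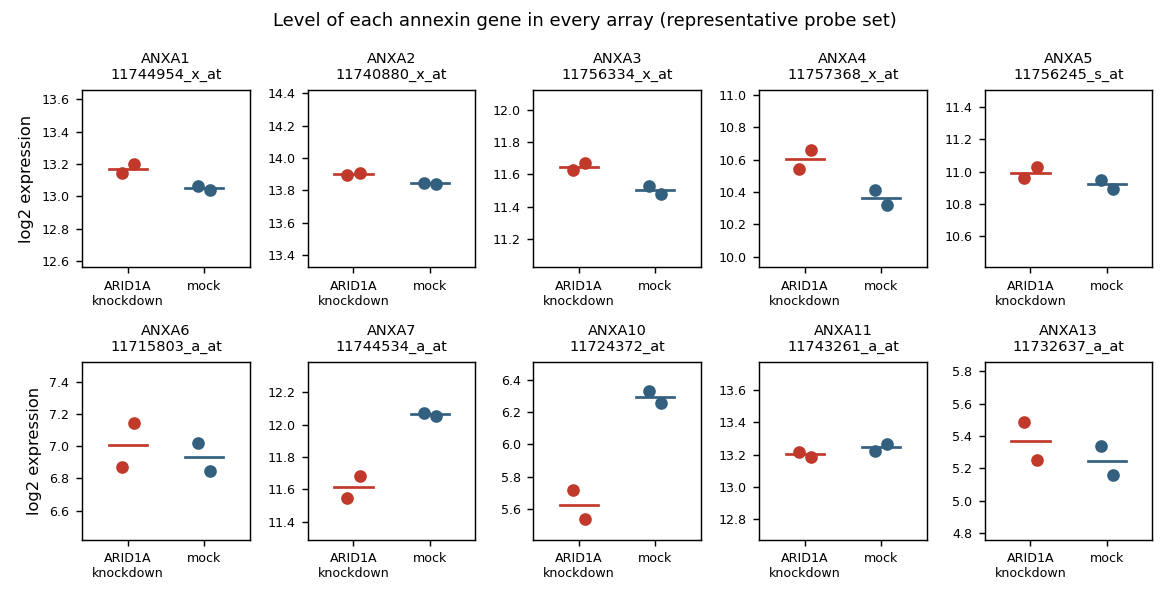
Log2 expression of each annexin gene at its representative probe set, with ARID1A knockdown arrays (red) left of mock arrays (blue); points are arrays, bars are means of 2, and every panel spans the same 1.1 log2 units around its own centre. The groups are far apart for ANXA10 (5.72 and 5.54 against 6.33 and 6.26) and ANXA7 (11.54 and 11.68 against 12.07 and 12.05), and overlap for ANXA6 and ANXA13.

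The starts of the genes with the lowest changes and of ANXA4 are shown because these members had the largest shifts. The 3 were picked after their values were seen. The sequences are from RefSeq, build GRCh38.p14, and give the 250 bases upstream of the annotated start, 5′ to 3′ on the strand of the gene, at chr4:168092287-168092536 (plus strand), chr10:73414059-73414308 (minus strand) and chr2:69643558-69643807 (plus strand, the first of 2 listed starts). Capitals mark matches, on either strand, to TATAAA (the TATA box core), TGANTCA (an AP-1 site), GGGCGG (a GC box) or CCAAT (the CCAAT box).
ANXA10: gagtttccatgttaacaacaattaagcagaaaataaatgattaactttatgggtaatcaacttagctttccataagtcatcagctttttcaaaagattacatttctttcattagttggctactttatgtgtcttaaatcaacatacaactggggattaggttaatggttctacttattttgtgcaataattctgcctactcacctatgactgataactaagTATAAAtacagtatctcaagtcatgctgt
ANXA7: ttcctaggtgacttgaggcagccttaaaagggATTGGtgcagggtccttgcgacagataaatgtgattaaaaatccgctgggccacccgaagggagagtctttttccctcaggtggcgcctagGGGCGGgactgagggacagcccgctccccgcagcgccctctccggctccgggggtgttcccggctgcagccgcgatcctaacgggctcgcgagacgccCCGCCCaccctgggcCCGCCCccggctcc
ANXA4: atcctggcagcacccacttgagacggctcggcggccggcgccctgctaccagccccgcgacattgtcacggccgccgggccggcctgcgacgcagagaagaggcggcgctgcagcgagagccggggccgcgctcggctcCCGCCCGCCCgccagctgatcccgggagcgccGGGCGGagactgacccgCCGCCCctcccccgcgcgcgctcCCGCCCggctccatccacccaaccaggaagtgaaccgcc
The ANXA10 window had 31.2% G and C, at percentile 2.27 of 35116 annotated starts, and held a TATAAA whose first base lies 29 bases before the start. The ANXA7 window had 66.0% G and C (percentile 70.2), 3 GC boxes and 1 CCAAT box. The ANXA4 window had 77.2% (percentile 93.5) and 5 GC boxes, of which 2 overlap. Of all windows of this length 10.7% held TATAAA, 6.57% TGANTCA, 42.6% GGGCGG and 32% CCAAT. The table held 9 of the 10 genes. Outside those shown, TATAAA was found 31 bases before the start of both ANXA1 and ANXA2 and 61 bases before 1 of the listed starts of ANXA11, and TGANTCA only before ANXA2. The 2 genes with the lowest changes thus had windows of unlike base composition. These matches describe the letters and do not show binding.

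ANXA10, the annexin of gastric epithelium, showed the lowest change of the 10 genes. Its only probe set, 11724372_at, read 5.72 and 5.54 in the knockdown arrays, against 6.33 and 6.26 in the mock arrays. Both knockdown arrays were below both mock arrays, as on 22.5% of all probe sets. The means were 5.63 ± 0.130 in knockdown and 6.29 ± 0.0520 in mock arrays (SD, n = 2 each). The log2 change was -0.67 (SE 0.0917, 95% confidence interval -0.89 to -0.44), so that knockdown cells held 63.0% of the mock signal (53.8% to 73.8%). The unadjusted p was 4.68e-04 and the limma adjusted p 0.0643, so the difference did not pass the test. Among the 18132 genes this change ranked 53 from the lowest. Its mean level ranked at percentile 50.7 of those tested. The 4 endothelial markers lay at percentiles 29.6 to 52.8 in this carcinoma line, a range that includes the level of ANXA10. Whether the ANXA10 signal lies above background was not tested. In bulk RNA a lower signal can come from fewer cells that express a gene or from less RNA per cell, which cannot be told apart here. The call depended on the setting: the limma adjusted p was 0.0237 with arrays centred on their medians, 0.0444 without the dimmest 25% of probe sets, 0.00696 with the trended robust prior and 0.0194 when all probe sets of each gene were averaged. The share of features called in those settings was 1.36%, 1.32%, 6.59% and 1.96%. In the other 8 settings the adjusted p was 0.0529 to 0.521.

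ANXA13, known from the epithelium of the intestine and kidney, lay below the median of all probe sets on both of its probe sets. Probe set 11732637_a_at read 5.49 and 5.25 in knockdown arrays, against 5.34 and 5.16 in mock arrays. Probe set 11741559_a_at read 3.81 and 3.77 in knockdown arrays, against 3.86 and 3.58 in mock arrays. The groups overlapped on both, with log2 changes of 0.12 (95% confidence interval -0.16 to 0.40) and 0.07 (-0.21 to 0.34). These signals ranked at percentiles 41.6 and 16.2 of those tested, and no difference of ANXA13 was detectable. The change of the brighter one was 0.0064 without knockdown replicate 1, 0.03 without mock replicate 2, 0.24 without knockdown replicate 2 and 0.21 without mock replicate 1.

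ANXA7, also called synexin, promotes the fusion of secretory granules, and its long N-terminal tail binds the calcium sensors sorcin and PDCD6. Its brighter probe set, 11744534_a_at, read 11.54 and 11.68 in knockdown arrays, against 12.07 and 12.05 in mock arrays. The second, 11723643_a_at, read 10.88 and 10.87 in knockdown arrays, against 11.32 and 11.27 in mock arrays. On both probe sets each knockdown array was below each mock array, as on 22.5% of all probe sets. The log2 changes were -0.45 (SE 0.0811, 95% confidence interval -0.65 to -0.25) and -0.42 (SE 0.0719, -0.60 to -0.24), equal to 73.1% and 74.6% of the mock signal. Neither passed the test (limma adjusted p = 0.0994 and 0.0902, unadjusted p = 0.00178 and 0.00134). Both probe sets are gene-specific by name, but they read the same 4 RNA samples and are not separate replicates. With both averaged into 1 value per gene the change was -0.44 and the limma adjusted p over 18132 genes 0.0339, and with the trended robust prior the adjusted p of the brighter probe set was 4.66e-04. Of all features 1.96% and 6.59% were called in those settings, and in the other 10 settings the adjusted p of ANXA7 was 0.0651 to 0.521.

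ANXA11, the other member with a long N-terminal tail, tethers RNA granules to lysosomes and also binds PDCD6. It was read by 8 probe sets with mean levels from 8.98 to 13.2. The brightest, 11743261_a_at, read 13.22 and 13.19 in knockdown arrays, against 13.22 and 13.27 in mock arrays. Its log2 change was -0.04 (95% confidence interval -0.22 to 0.13, limma adjusted p = 0.819). Changes of -0.03, -0.03, -0.07, -0.06, -0.09 and -0.07 were found at 11741103_a_at, 11741350_a_at, 11743262_x_at, 11745975_a_at, 11747064_x_at and 11745976_x_at, and of 0.10 at 11741351_s_at, the dimmest. On 7 of the 8 probe sets both knockdown arrays lay below both mock arrays, by amounts that stayed under 0.09 log2 units. Over all probe sets 22.5% separate in that direction and 24.2% in the other, so such a separation alone is common on these arrays. The interval at the brightest probe set does not reach the changes of ANXA7, but the difference between both genes was not tested.

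**Figure D2:**
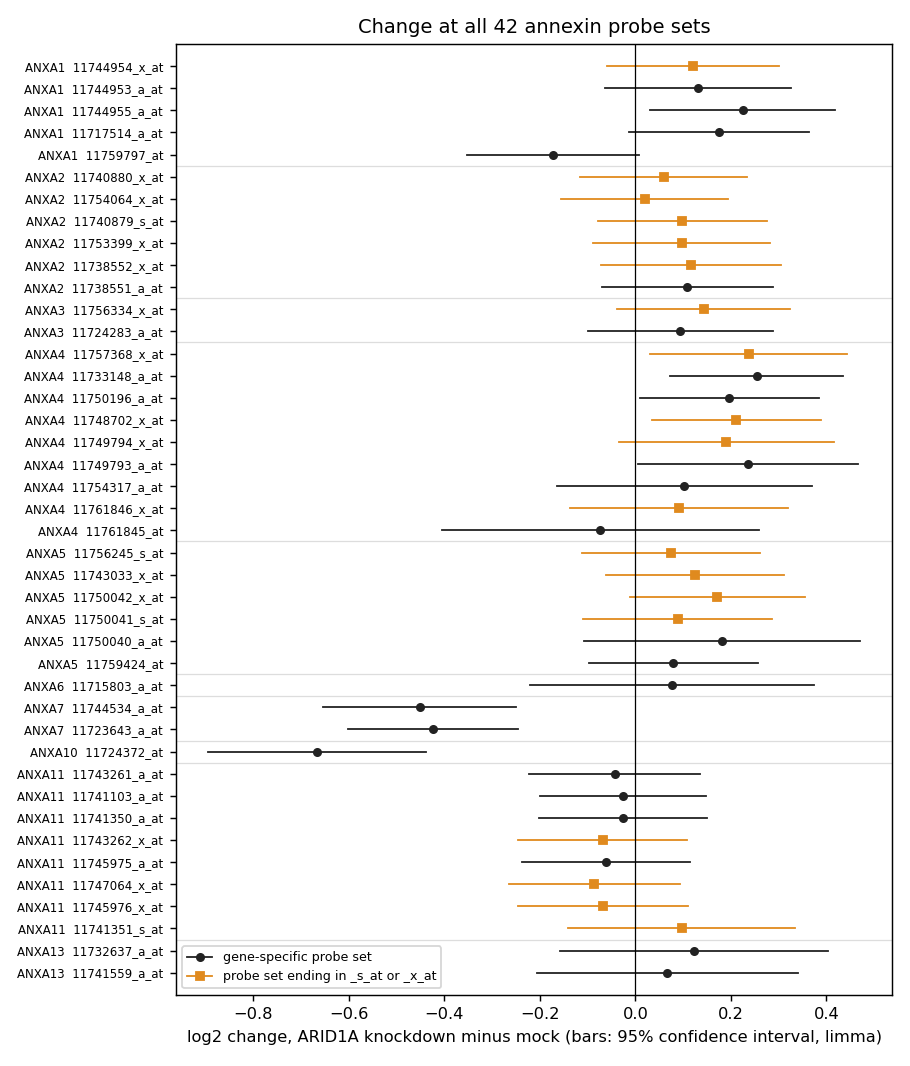
Log2 change, ARID1A knockdown minus mock, at each of the 42 annexin probe sets with its 95% confidence interval from limma; black circles are gene-specific probe sets and orange squares those ending in _s_at or _x_at, whose probes can match other sequences. ANXA7 and ANXA10 stand to the left of every other member (-0.42 to -0.67), and most ANXA4 probe sets lie near 0.2.

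ANXA4 organises lattices on membranes of secretory epithelia, and had the largest positive changes of the 10 genes. Its brightest probe set, 11757368_x_at, read 10.54 and 10.66 in knockdown arrays, against 10.41 and 10.32 in mock arrays. The gene-specific 11733148_a_at read 10.43 and 10.40 in knockdown arrays, against 10.19 and 10.13 in mock arrays. On both, the knockdown arrays lay above the mock arrays, with log2 changes of 0.24 (SE 0.0831) and 0.25 (SE 0.0730, 95% confidence interval 0.07 to 0.44). Neither passed the test (limma adjusted p = 0.257 and 0.2002). Further changes were 0.20 at 11750196_a_at, 0.21 at 11748702_x_at, 0.19 at 11749794_x_at, 0.24 at 11749793_a_at and 0.10 at 11754317_a_at. The remaining probe sets lay below the median of all probe sets. Their changes were 0.09 at 11761846_x_at and -0.07 at 11761845_at, the latter with a mean of 3.09. Of the 9 probe sets 8 were positive, 5 had an unadjusted p under 0.05 and 6 separated the groups. Over all probe sets 49.1% were positive, 9.1% were higher at that p and 24.2% separated with knockdown higher. The 9 probe sets read the same RNA samples and are not separate replicates. Averaged over all 9, the change of ANXA4 was 0.16 (limma adjusted p = 0.333).

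ANXA1 is a glucocorticoid-induced protein whose N-terminal peptide acts on formyl peptide receptors and dampens inflammation. At its brightest probe set, 11744954_x_at, it read 13.14 and 13.20 in knockdown arrays, against 13.06 and 13.04 in mock arrays. At 11744955_a_at, the highest change of this gene, it read 12.61 and 12.67 in knockdown arrays, against 12.47 and 12.37 in mock arrays. The changes were 0.12 (95% confidence interval -0.06 to 0.30, limma adjusted p = 0.473) and 0.22 (0.03 to 0.42, adjusted p = 0.253). The other bright probe sets, 11744953_a_at and 11717514_a_at, had changes of 0.13 and 0.17, and on all 4 the groups did not overlap. Of all probe sets 24.2% separated in that direction. The fifth, 11759797_at, read 3.83 and 3.79 in knockdown arrays and 3.96 and 4.01 in mock arrays. Its change of -0.17 was opposite in sign to the others, at percentile 18.8 of those tested.

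ANXA2 forms a complex with S100A10 that binds actin, plasminogen and plasma membrane. At 11740880_x_at it read 13.90 and 13.91 in knockdown arrays, against 13.85 and 13.84 in mock arrays. That change was 0.06 (95% confidence interval -0.12 to 0.23, limma adjusted p = 0.732). The only gene-specific probe set, 11738551_a_at, read 8.48 and 8.44 in knockdown arrays, against 8.33 and 8.37 in mock arrays, a change of 0.11 (-0.07 to 0.29). The others had changes of 0.02 at 11754064_x_at, 0.10 at 11740879_s_at, 0.10 at 11753399_x_at and 0.12 at 11738552_x_at. All 6 were positive with both knockdown arrays above both mock arrays, none passed the test, and no upper limit of the 6 intervals exceeded 0.31. Over all probe sets 24.2% separated in that direction, and the 6 probe sets read the same RNA samples. ANXA2 has processed pseudogenes, and the probe set of ANXA2P2, 11747282_x_at, read 13.82 and 13.89 in knockdown arrays and 13.79 and 13.81 in mock arrays. By their endings 5 of the ANXA2 probe sets can match other sequences, and whether they match these copies was not tested, since probe sequences were not used here.

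ANXA5 binds exposed phosphatidylserine and is widely used to stain dying cells. Its brightest probe set, 11756245_s_at, read 10.96 and 11.03 in knockdown arrays, against 10.95 and 10.89 in mock arrays, a change of 0.07 (95% confidence interval -0.11 to 0.26, limma adjusted p = 0.682). The other 5 probe sets had changes of 0.12 at 11743033_x_at, 0.17 at 11750042_x_at, 0.09 at 11750041_s_at, 0.18 at 11750040_a_at and 0.08 at 11759424_at. All 6 were positive, 5 separated the groups and none had an unadjusted p under 0.05. Over all probe sets 49.1% were positive and 24.2% separated with knockdown higher.

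ANXA3, an annexin abundant in neutrophils and found in many carcinomas, read 11.62 and 11.67 in knockdown arrays, against 11.53 and 11.48 in mock arrays, at 11756334_x_at. At 11724283_a_at it read 11.15 and 11.25 in knockdown arrays, against 11.13 and 11.07 in mock arrays. The changes were 0.14 and 0.09 (limma adjusted p = 0.405 and 0.608), with no overlap of the groups on either, as on 24.2% of all probe sets. ANXA6, whose core arose by duplication and which binds late endosomes and caveolae, had a single probe set, 11715803_a_at. It read 6.87 and 7.15 in knockdown arrays, against 7.02 and 6.85 in mock arrays, with overlapping groups and a change of 0.08 (95% confidence interval -0.22 to 0.37). This change turned negative without knockdown replicate 2 (-0.06) and without mock replicate 2 (-0.01).

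**Figure D3:**
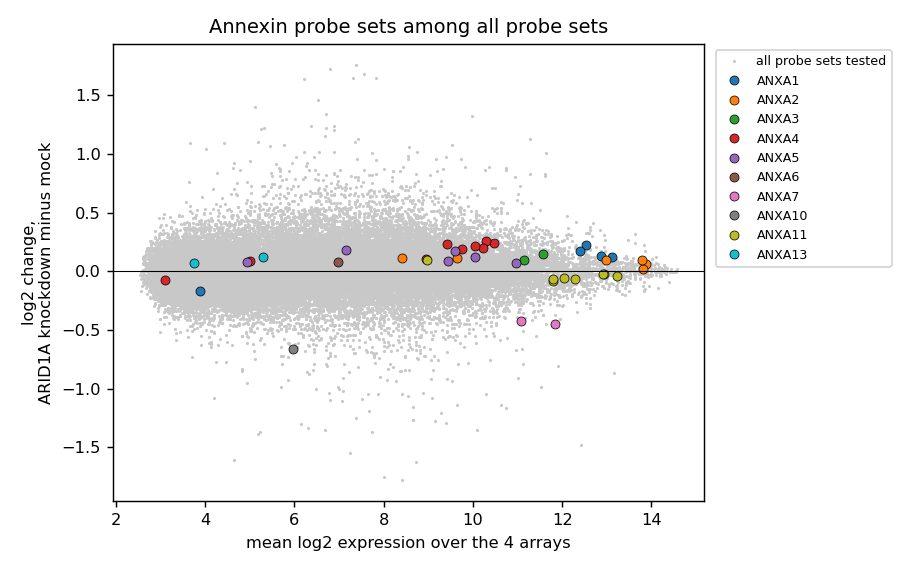
Log2 change, ARID1A knockdown minus mock, against the mean log2 expression over the 4 arrays, for all probe sets tested (grey) and the annexin probe sets (coloured by gene). ANXA7 lies low among the bright probe sets with changes of -0.45 and -0.42, and ANXA10 lies low near the middle of the scale with -0.67. At their representative probe sets ANXA7 and ANXA10 ranked 171 and 53 from the lowest among 18132 genes.

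For 39 annexin probe sets the mean lay above the lower quartile of all probe sets. Among these, the probe sets of ANXA1, ANXA2, ANXA3, ANXA4 and ANXA5 were all positive, those of ANXA7 both negative, and ANXA11 had 7 negative and 1 positive. ANXA6, ANXA10 and ANXA13 had 1 such probe set each, so their probe sets could not be compared. In all, 30 of 42 were positive (49.1% of all probe sets were). The groups did not overlap on 23 with knockdown higher and on 11 with knockdown lower, beside 24.2% and 22.5% of all probe sets. The probe sets of 1 gene share RNA and often probes, so these counts are not counts of independent measurements.

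**Figure D4:**
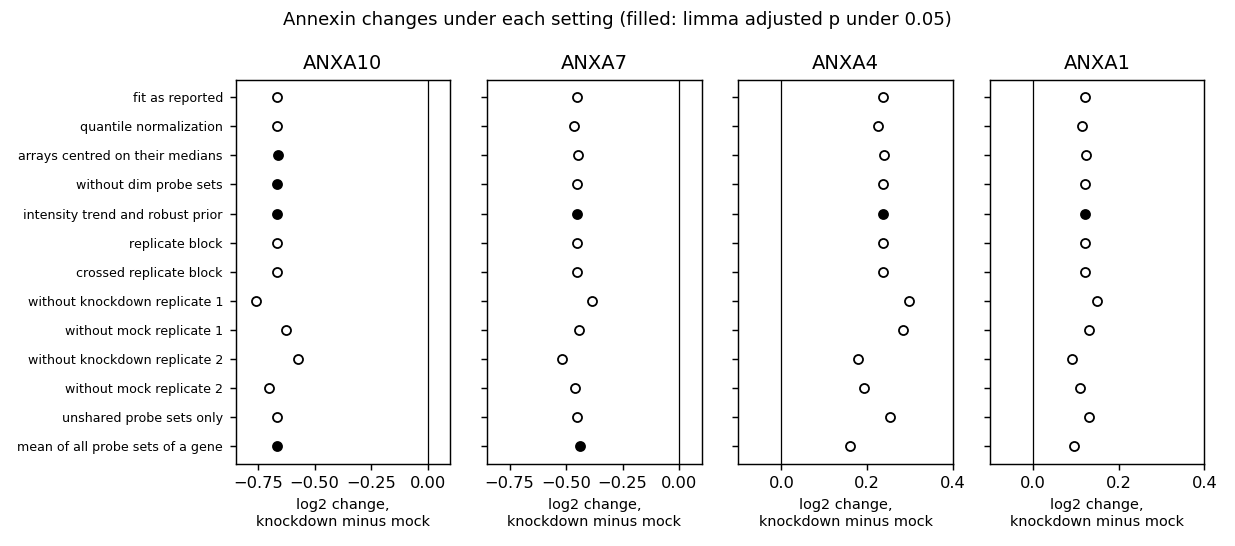
Log2 change, ARID1A knockdown minus mock, of ANXA10, ANXA7, ANXA4 and ANXA1 under each setting of the analysis; filled points have a limma adjusted p under 0.05, and the left and right pairs of panels have different horizontal ranges. No sign changes in these 4 genes, but many of the settings could not change a sign. Filled points occur for ANXA10 in 4 settings, ANXA7 in 2, and ANXA4 and ANXA1 in 1 each.

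Among annexins outside the 10, ANXA9 read 8.81 and 8.83 in knockdown arrays, against 8.46 and 8.46 in mock arrays, a log2 change of 0.35 (SE 0.0703, limma adjusted p = 0.115). ANXA8 read 5.11 and 4.91 in knockdown arrays, against 5.17 and 5.30 in mock arrays, a change of -0.23 (adjusted p = 0.344) on its own probe set. The 5 probe sets that ANXA8 shares with ANXA8L1 and LINC00842 had changes from -0.03 to 0.06, and the difference between those readings was not tested. ANXA2R, which is named for a receptor of annexin A2 and was looked at after its values were seen, had a change of 0.33 (adjusted p = 0.148).

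Of 7 measured binding partners of annexins, 0 passed the test by limma. At an unadjusted p under 0.05, 2 were higher and 0 lower, with a median change of -0.03. Over all genes those shares were 9.76% and 7.25%, and 73 (0.403%) passed the adjusted test. S100A4, a calcium-binding protein tied to motility, read 8.18 and 8.44 in knockdown arrays, against 7.43 and 7.28 in mock arrays. Both knockdown arrays lay above both mock arrays, as on 24.2% of all probe sets. The change of S100A4 was 0.95 (SE 0.113, limma adjusted p = 0.0525), and its 3 probe sets had changes from 0.95 to 1.14. S100A10, the partner of ANXA2, had a change of 0.21 (adjusted p = 0.245), S100A6 of 0.14 and PDCD6, the partner of ANXA7 and ANXA11, of -0.15. S100A11, a partner of ANXA1, had a change of -0.03, and sorcin (SRI), which binds ANXA7, of -0.09. Over the 7 probe sets of SRI the changes ran from -0.42 to 0.11, and over the 3 of PDCD6 from -0.15 to 0.02.

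In the plasminogen system, which the complex of ANXA2 and S100A10 assembles on the cell surface, 0 of 7 passed the test by limma. At an unadjusted p under 0.05, 2 were higher and 0 lower, and the median was -0.03. Of all genes 0.403% passed, and at that unadjusted p 9.76% were higher and 7.25% lower. PLAU, the urokinase activator, read 11.59 and 11.56 in knockdown arrays, against 11.16 and 11.09 in mock arrays, a change of 0.45 (SE 0.0743, adjusted p = 0.0873). Its 3 probe sets had changes from 0.04 to 0.45. PLGRKT, a plasminogen receptor, had a change of 0.24, the urokinase receptor PLAUR of -0.15 and the tissue activator PLAT of 0.13.

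Of the 9 formyl peptide receptors and lipid mediator enzymes, 0 passed by limma. At an unadjusted p under 0.05, 0 were higher and 2 lower, with a median of -0.01. Of all genes 0.403% passed, and at that unadjusted p 9.76% were higher and 7.25% lower. PTGES, which makes prostaglandin E2, had a change of -0.30 (adjusted p = 0.152) and PTGS2, the inducible cyclooxygenase, of -0.22 (0.276). FPR1, a receptor for ANXA1 peptides, was dim, at percentile 15.5, with a change of 0.16, and ALOX5 had a change of -0.04. Of 8 genes for the glucocorticoid receptor and its targets, 0 passed, 1 was higher and 0 lower at that p, and the median was 0.06. The shares over all genes were again 9.76% and 7.25%. KLF9 read 8.13 and 8.13 in knockdown arrays, against 7.52 and 7.40 in mock arrays, a change of 0.67 (SE 0.0790, adjusted p = 0.0525). However, 2 of its 4 probe sets had the opposite sign. ZBTB16 had a change of -0.20, DUSP1 of -0.22 and SGK1 of 0.24.

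Of 15 genes of membrane repair, in which annexins seal the torn edge, 0 passed by limma. At an unadjusted p under 0.05, 2 were higher and 2 lower, and the median was -0.01. Of all genes 0.403% passed, and at that unadjusted p 9.76% were higher and 7.25% lower. MYOF, the ferlin myoferlin, had a change of 0.28 (adjusted p = 0.169), the SNARE protein STX4 of 0.20, the calpain CAPN1 of -0.28 (0.166) and TRIM72 of -0.29. Of 7 phosphatidylserine scramblases and flippases, 0 passed, 1 was higher and 0 lower at that p, and the median was 0.02. The shares over all genes were again 9.76% and 7.25%. The higher gene was PLSCR1, with a change of 0.25 (adjusted p = 0.202) and changes from 0.25 to 0.34 over its 6 probe sets. The scramblase ANO6 had a change of 0.20, and the flippases ATP8B1 and ATP8A1 of 0.13 and -0.04.

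**Figure D5:**
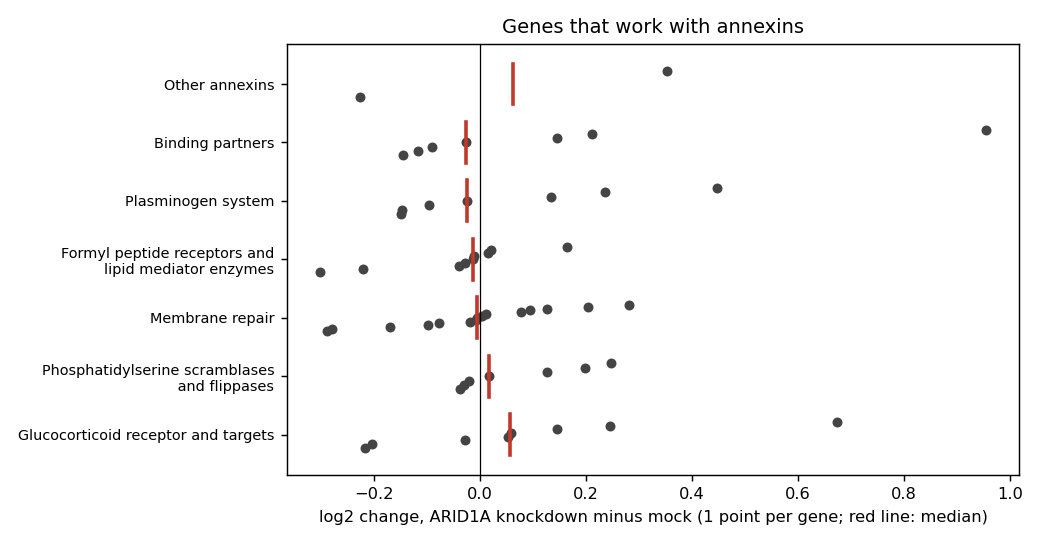
Log2 change, ARID1A knockdown minus mock, of each measured gene in 7 lists of genes related to annexins, 1 point per gene at its representative probe set and a red line at each list's median. The lists include other annexins and the glucocorticoid receptor with its targets, among them KLF9, which are not partners of annexins. The medians lie between -0.03 and 0.06, and S100A4 (0.95), KLF9 (0.67) and PLAU (0.45) are the points farthest to the right.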

How the data were processed

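Total RNA of 4 OE33 cultures, 2 ARID1A knockdown and 2 mock, was measured on Affymetrix PrimeView arrays. The authors deposited 1 log2 value per probe set and array. The submitters' processing notes name RMA and Partek without versions or roles. RMA as usually run brings the probe signals of all arrays to a common distribution, which would hide a change in the total mRNA of a cell. The deposited probe set values did not share 1 distribution exactly. Their array medians were 5.92 and 5.90 in knockdown arrays and 5.89 and 5.93 in mock arrays. The log2 scale was inferred from RMA and the range of the values, and no source used here gives scan dates.

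Of 49372 probe sets 79 controls were left out. Probe sets were named through the platform annotation where paired with 1 gene (44988), and all 42 annexin symbols matched RefSeq GRCh38.p14. Knockdown was compared with mock by limma 3.58.1 in R 4.3.3 (lmFit, eBayes, two-sided, 2 residual degrees of freedom, a prior worth 3.62), with Benjamini-Hochberg adjustment over 49293 probe sets and a threshold of 0.05. All p-values are from this fit unless another setting is named, and confidence intervals are 95%. The procedure was tested on simulated data. Arrays have no read depth; precision is limited by having 2 per group.

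Members and lists were chosen with earlier results of these data known. Every annexin probe set is given. From each list of related genes the rule names any past the test and up to 4 with the smallest p, while S100A11, SRI and ANXA2R were added after their values were seen. List genes lacking a probe set paired with them alone were not analysed here. Same-numbered arrays are not said to share a culture or day, so no block was used. Alternatives were quantile normalization, median centring, a filter on dim probe sets, a trended robust prior, replicate blocks, leaving out each array, unshared probe sets and averaged probe sets.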

Additional observations from a re-analysis of the deposited data

How the results depend on the processing

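The sign of the log2 change held in all 12 alternatives for 9 of the 10 annexin genes, the exception being ANXA6. Many of these alternatives could not change a sign. The dim filter, the trended robust prior and both replicate blocks left each representative change as it was. Leaving out 1 array cannot turn the sign where the groups do not overlap. The count of all probe sets past the limma test was 156 as reported, 297 after quantile normalization, 671 with arrays centred on their medians, 487 without dim probe sets, 3249 with the trended robust prior, 23 with unshared probe sets only and 0 with either replicate block. The cause of these differences was not tested, but the blocks and the fits on 3 arrays leave 1 residual degree of freedom. The annexin probe sets past the test numbered 0 as reported, 1 with centred arrays, 1 without dim probe sets and 10 with the trended robust prior. At an unadjusted p under 0.05, 9.1% of all probe sets were higher and 7.07% lower in the fit as reported. That share is not given for the other settings, so the annexin counts there have no background. Annexin probe sets at that p numbered 9 as reported (6 higher) and 20 with the trended robust prior (16 higher). With the replicate block they numbered 4 (1 higher), and with crossed numbers 12 (8 higher). Leaving out 1 array in turn gave 3 to 8 such annexin probe sets, 0 to 0 of all probe sets past the test, an ARID1A change of -1.80 to -1.75 (adjusted p from 0.244 to 0.521) and a median annexin change of 0.04 (0.0397, without mock replicate 2) to 0.12 (0.117, without mock replicate 1). With the replicate block the ARID1A change was -1.78 with an adjusted p of 0.217, and with crossed numbers -1.78 with 0.187. The differences between replicates 1 and 2 correlated at -0.202 between the groups over 49293 probe sets, which is why the crossed numbers were added after seeing the data; they gave 0 calls after adjustment. ANXA7 ranged from -0.52 to -0.38 and ANXA10 from -0.76 to -0.57 with 1 array left out, with adjusted p-values from 0.261 to 0.521 in these fits, in which not even ARID1A passed.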
